A study of Mus musculus with 6 samples.

Results

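Keratins, the intermediate filament proteins of epithelial cells, were examined in messenger RNA of the distal colon from wildtype mice and mice without TNFR2. TNFR2 is a receptor for tumor necrosis factor and is encoded by Tnfrsf1b. A row of the deposited gene table was taken as a keratin when its gene name was Krt, a number and at most 1 final letter, so keratin-associated proteins (Krtap) and Krtdap were left out. This rule found 46 keratins among 24617 rows. By the tissue in which each keratin is known to be made, 5 were keratins of simple epithelia, 20 of stratified epithelia, 7 of the inner root sheath and companion layer of the hair follicle, and 12 of the hair shaft. The other 2 were Krt222 and Krt24.

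All mice were male, of strain C57Bl/6 and aged 8 weeks. One group was wildtype and the other TNFR2-/-, with 3 mice and 3 libraries in each. Neither group had a treatment in the labels, and the knockout allele and the deleted part of Tnfrsf1b are not given there. Because whole distal colon was sequenced, fewer cells of a type and less RNA per cell cannot be told apart.

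Keratins form filaments only as pairs of 1 acidic type I and 1 basic type II protein. Simple epithelia such as the colonic mucosa are known for Krt8, Krt18, Krt19 and Krt20. Stratified epithelia make Krt5 and Krt14 in their basal layer and switch above it, to Krt1 and Krt10 in skin and to Krt4 and Krt13 in internal linings. The hair follicle makes further sets of its own in the root sheath and in the shaft, and the distal colon ends at the anal canal, where columnar epithelium meets stratified epithelium and skin.

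Nearly all keratin genes lie in 2 clusters. In the mm10 coordinates of the deposited table, 26 members, all type I, lay on chromosome 11 between 99280093 and 100269871. A further 19 lay on chromosome 15 between 101348314 and 102032026. These were 18 type II genes and Krt18, a type I gene at the edge of the type II cluster. Krt222, which was given no type, lay next to the chromosome 11 cluster, between 99233098 and 99244067.

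Promoter sequences are shown here because hair keratins, whose levels differ most in what follows, are direct neighbours of simple and stratified keratins on the same chromosome. RefSeq (GRCm38.p6, the same assembly as mm10) gave a promoter entry for 32 of the 46 members, and the 29 whose start lay within 100 bases of the gene's edge were used. The letters TATAAA, the core of the TATA box, were searched on both strands of the 250 bases before the start. They were present in 11 of 15 hair keratins (73.3%), in 3 of 9 stratified keratins (33.3%) and in 1 of 4 simple keratins, against 13.0% of 27025 RefSeq promoters. On the gene's own strand and wholly between 40 and 15 bases before the start, where a TATA box usually lies, the letters were present in 8 of 15 hair keratins (53.3%), in 3 of 9 stratified and 1 of 4 simple keratins, and in 2.22% of all RefSeq promoters. The binding letters of AP-2 (GCCNNNGGC, both strands, 250 bases) were in 0 of 15 hair keratins, in 2 of 9 stratified and 2 of 4 simple keratins, and in 13.6% of all promoters. Those of AP-1 (TGANTCA, both strands, 250 bases) were in 1 of the 29 keratins and in 6.87% of all promoters. A match describes the letters and is no evidence of binding.

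The following lines give the 100 bases before the start, from 5′ to 3′ on the gene's strand, with TATAAA in capitals. They show 2 simple keratins (Krt18 and Krt20), 1 epidermal keratin (Krt10), 2 root sheath keratins (Krt25 and Krt71) and 3 shaft keratins (Krt34, Krt31 and Krt36). Krt18 (chr15:102028116-102028215) lies on the plus strand, and the others on the minus strand: Krt20 (chr11:99438154-99438253), Krt10 (chr11:99389365-99389464), Krt25 (chr11:99322952-99323051), Krt71 (chr15:101743098-101743197), Krt34 (chr11:100041555-100041654), Krt31 (chr11:100050552-100050651) and Krt36 (chr11:100105627-100105726).
Krt18: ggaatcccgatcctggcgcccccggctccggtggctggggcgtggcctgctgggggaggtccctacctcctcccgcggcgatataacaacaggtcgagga
Krt20: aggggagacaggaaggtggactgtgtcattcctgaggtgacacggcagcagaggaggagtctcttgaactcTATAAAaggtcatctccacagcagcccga
Krt10: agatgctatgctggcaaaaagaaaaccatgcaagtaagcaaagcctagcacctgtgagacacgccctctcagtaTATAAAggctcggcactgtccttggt
Krt25: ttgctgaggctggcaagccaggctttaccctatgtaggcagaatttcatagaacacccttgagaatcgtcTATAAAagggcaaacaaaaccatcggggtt
Krt71: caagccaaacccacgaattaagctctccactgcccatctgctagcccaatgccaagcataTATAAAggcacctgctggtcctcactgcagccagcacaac
Krt34: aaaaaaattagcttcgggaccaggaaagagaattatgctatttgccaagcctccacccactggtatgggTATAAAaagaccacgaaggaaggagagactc
Krt31: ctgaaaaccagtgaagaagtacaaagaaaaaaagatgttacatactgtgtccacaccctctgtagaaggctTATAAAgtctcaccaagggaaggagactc
Krt36: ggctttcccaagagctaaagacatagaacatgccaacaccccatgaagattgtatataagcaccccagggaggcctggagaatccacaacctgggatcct
Of these 8, Krt18 and Krt36 had no TATAAA in the 100 bases shown. In the other 6 its first letter stood between 40 bases before the start, in Krt71, and 26 bases before it, in Krt10.

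Values are given in the order of libraries 1, 2 and 3 of each genotype. Levels are in FPKM, fragment counts divided by transcript length and by a library's mapped fragments. The division by length allows genes to be compared. FPKM are relative to the rest of a library, so a comparison between libraries also depends on what other RNA each holds. The stated average depth was 50M paired-end reads, and the relative depth of the 6 libraries, read from the steps between low values, spanned 1.49-fold. The targeted gene followed the labels. Tnfrsf1b was at 7.49, 8.20 and 8.17 FPKM across wildtype and 1.17, 1.12 and 0.924 FPKM across knockout libraries 1, 2 and 3, a log2 difference of -2.11 ± 0.08 (SE). Log2 differences are knockout minus wildtype on log2(FPKM + 1), which understates the change of low genes. They were tested with limma over the 14564 named genes that averaged 0.5 FPKM or more, with Benjamini-Hochberg adjustment over all of them. Of the keratins, 34 were tested, and the 12 others did not exceed 0.857 FPKM in any library.

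Across the 46 members, levels spanned from 2585 FPKM for Krt19 to listed values of 0. The mean was lower in the knockout for 44 of 46 members, by very different amounts in the classes. Among all tested genes, 57.4% had a log2 difference below 0. Knockout library 1 was lowest or tied for lowest in 37 of the 46, and the members are not independent observations. Keratins of simple epithelia had knockout means at a median of 95.4% of their wildtype mean, stratified keratins at a median of 49.1% and hair keratins at a median of 11.3%. No keratin passed the adjusted test in either direction, against 15 of 14564 genes lower (0.103%) and 27 higher (0.185%). The spread within each genotype was wide for every class but the simple one. At an unadjusted limma p under 0.05, 8 of the 34 tested keratins were lower (23.5%) and 0 were higher, beside 9.91% of all genes lower and 6.3% higher. The 8 became 1 when wildtype library 1, wildtype library 3, knockout library 1 or knockout library 2 was left out, 12 without wildtype library 2 and 11 without knockout library 3. With the skin barrier level as a covariate, an alternative chosen after seeing the data, 1 was lower and 2 were higher. That level was itself lowest in knockout library 1, so the smaller count follows in part from the choice and tests no cause. With all 6 libraries the 8 were Krt2, 3 root sheath keratins and 4 shaft keratins. Krt2 and Krt28 among them passed the 0.5 FPKM filter only through wildtype, with knockout means of 0.257 and 0.184 FPKM. Krt75 and Krt35, also tested, passed in the same way (0.232 and 0.193 FPKM). The means of such genes could only come out lower, which raises the share of lower keratins. The authors' deposited table, which comes from Cuffdiff 2, listed 18 of the 46 members (39.1%) as lower at a q-value under 0.05 and 0 as higher, against 1.13% of its 19336 tested named rows lower and 0.114% higher.

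**Figure D1:**
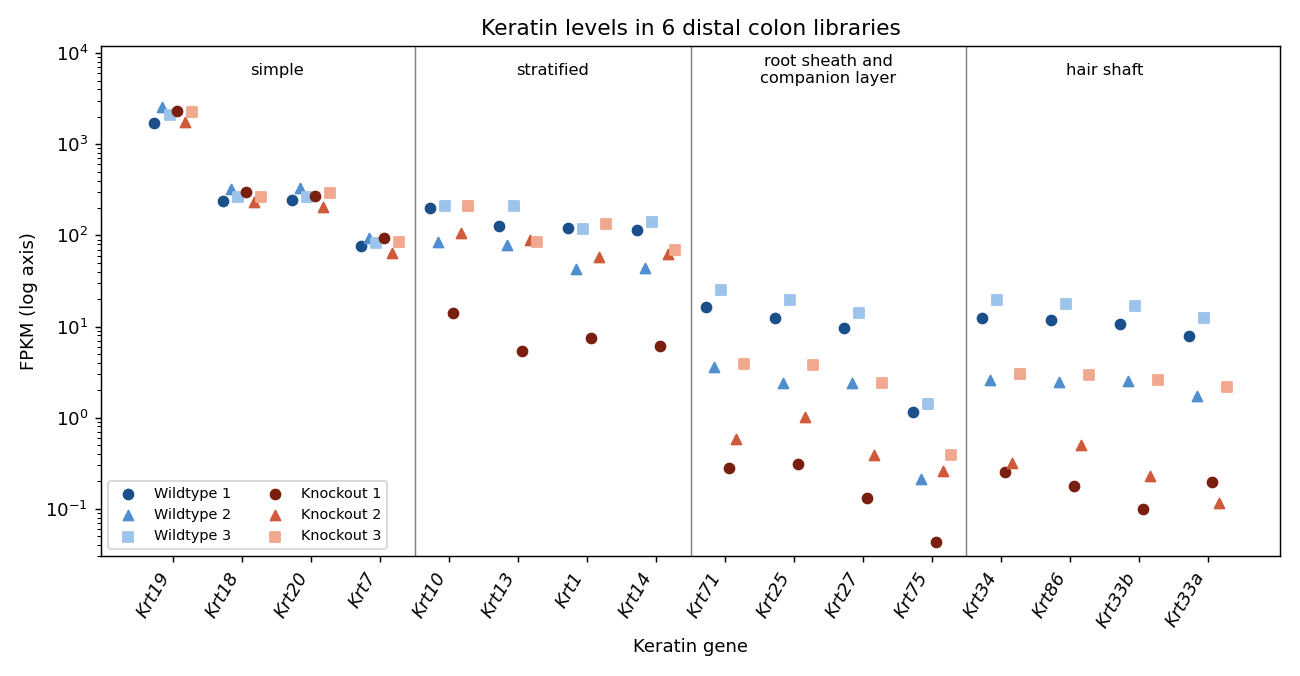
FPKM (log axis) of the leading keratins of each class in the 3 wildtype and 3 knockout libraries, 1 marker per library. The simple keratins at the left lie close together in all 6 libraries, while in the stratified and hair keratins knockout library 1 lies lowest, Krt33a excepted, and wildtype libraries 1 and 3 mostly lie highest.

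Simple keratins made up most of the keratin RNA. Their summed level was 2294, 3343 and 2737 FPKM in the 3 wildtype mice and 3017, 2245 and 2926 FPKM in the 3 knockouts, so the groups overlapped before any scaling to epithelium. Krt19, a type I keratin without a tail domain, alone held between 52.4% and 76.2% of the summed FPKM of the 46 members in a library. That sum leaves out the shared rows of Krt8 and of Krt81, Krt83 and Krt85, given below. The Krt8 row lay above Krt19 in every library.

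Krt19 was at 1726, 2585 and 2118 FPKM in wildtype libraries 1, 2 and 3, and at 2343, 1739.6 and 2273 FPKM in knockout libraries 1, 2 and 3. The lowest library of all was a wildtype and the highest a wildtype too. Its log2 difference was -0.01 ± 0.18 (SE, n = 3 each; limma adjusted p = 0.984).

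Krt18, the type I partner of Krt8, was at 240.1, 323 and 261 FPKM across wildtype and 302, 230.3 and 264 FPKM across knockout libraries. Krt20, a keratin of differentiated surface colonocytes, was at 244, 334 and 263 FPKM in the 3 wildtype mice and 274, 205 and 295 FPKM in the 3 knockouts. The type II keratin Krt7, known from ducts and simple linings, was at 77.0, 92.8 and 83.4 FPKM across wildtype and 92.6, 64.7 and 84.2 FPKM across knockout libraries. In all 3 genes knockout library 2 was the lowest of the 6 and wildtype library 2 the highest. Their log2 differences were -0.05 ± 0.14 for Krt18, -0.12 ± 0.17 for Krt20 and -0.08 ± 0.14 for Krt7 (SE, n = 3 each; limma adjusted p = 0.892, 0.742 and 0.807).

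Krt23, a further type I keratin, was the lowest of the class and is singled out after its values were seen. It was at 7.71, 8.27 and 11.8 FPKM in the 3 wildtype mice and 5.91, 4.68 and 8.93 FPKM in the 3 knockouts. Its knockout mean was 70.1% of the wildtype mean, but knockout library 3 lay above wildtype libraries 1 and 2, and the log2 difference of -0.47 ± 0.24 did not pass (limma adjusted p = 0.376).

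Krt8, the main type II partner of Krt18 and Krt19, had no row of its own. It shared 1 row with Krt73, a root sheath keratin, at 2244, 3189 and 2618 FPKM across wildtype and 2904, 2269.8 and 2823 FPKM across knockout libraries. That row was 9.35 to 10.7 times the level of Krt18 and 1.23 to 1.30 times that of Krt19 in every library.

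The ratios of Krt19, Krt20 and Krt7 to Krt18 varied less from library to library than those of Krt23. Krt19 was 7.19 to 8.60 times Krt18, Krt20 was 0.892 to 1.12 times Krt18, and Krt7 was 0.281 to 0.321 times Krt18. Krt23 ran from 0.0196 times Krt18 in knockout library 1 to 0.0454 times in wildtype library 3. Epithelial markers had a similar order of libraries: 9 measured genes of the colonic epithelium summed to 2138, 3005 and 2438 FPKM in the 3 wildtype mice and 3006, 2391 and 2903 FPKM in the 3 knockouts. When each library was scaled to these markers, the highest library of Krt19 was 1.21 times the lowest, against 1.50 times before. The same spread went from 1.40 to 1.25 times for Krt18, from 1.63 to 1.28 times for Krt20 and from 1.43 to 1.26 times for Krt7, and for Krt23 it went from 2.53 to 2.68 times.

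After this scaling the 4 leading simple keratins were lower in every knockout library than in every wildtype library, beside 4.76% of all tested genes. Krt19 was then at 2059.7, 2224 and 2384 against 1974, 2003 and 2028 scaled FPKM, and Krt18 at 286, 278 and 294 against 254, 265 and 236. Krt20 was at 291, 287 and 296 against 231, 236 and 264 scaled FPKM, and Krt7 at 91.9, 79.9 and 93.9 against 78.0, 74.5 and 75.2. The scaling moved the median log2 difference of all genes from -0.03 to -0.15, since the epithelial markers themselves had higher means in the knockout. On that scale the log2 differences were -0.15 ± 0.13 for Krt19, -0.19 ± 0.13 for Krt18, -0.26 ± 0.13 for Krt20 and -0.22 ± 0.14 for Krt7 (SE, n = 3 each; limma adjusted p = 0.745 for Krt19 and 0.742 for the others), so none passed.

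Stratified keratins differed between single libraries far more than between genotypes. Their sum was 902, 402 and 1118 FPKM in wildtype libraries 1, 2 and 3 and 51.9, 513 and 714 FPKM in knockout libraries 1, 2 and 3. Knockout library 1 was lowest in 18 of the 20 genes and tied for lowest in 1 more. Wildtype library 2 lay below both knockout libraries 2 and 3 in 16 of the 20, so that the means, lower in the knockout in all 20, rested on wildtype libraries 1 and 3 and on knockout library 1. Without knockout library 1 the log2 ratio of the class sums went from -0.92 to -0.40.

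The epidermal pair of the suprabasal layers was the most abundant. Krt10 was at 199 and 211 FPKM in wildtype libraries 1 and 3 and at 83.9 FPKM in wildtype library 2, and at 14.1, 106 and 209 FPKM in knockout libraries 1, 2 and 3. Krt1, its type II partner, was at 121, 43.2 and 119 FPKM across wildtype and 7.41, 58.3 and 133 FPKM across knockout libraries. Knockout library 3 was the highest of all 6 for Krt1, and knockout library 1 the lowest for both. Their log2 differences were -1.13 ± 1.15 and -1.09 ± 1.21 (SE, n = 3 each; limma adjusted p = 0.65 and 0.676).

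Krt13, the type I keratin of non-cornifying linings such as esophagus and mouth, was at 127, 78.1 and 209 FPKM in the 3 wildtype mice and 5.45, 89.7 and 83.9 FPKM in the 3 knockouts. Krt14, the type I keratin of the basal layer, was at 115, 43.5 and 139.7 FPKM across wildtype and 6.04, 63.1 and 69.4 FPKM across knockout libraries. For both genes wildtype libraries 1 and 3 lay above every knockout library and wildtype library 2 below knockout libraries 2 and 3. Their log2 differences were -1.81 ± 1.25 and -1.50 ± 1.13 (SE, n = 3 each; limma adjusted p = 0.516 and 0.548).

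The other tested stratified members, Krt2 apart, had knockout means between 41.7% and 71.8% of the wildtype mean. The knockout mean was 54.0% of the wildtype mean for Krt5, the basal partner of Krt14, and 41.7% for Krt4, the partner of Krt13. It was 42.9% for Krt6a, 49.5% for Krt6b, 60.9% for Krt16 and 42.4% for Krt17, a group made in wounded skin and in the hair follicle. It was 48.7% for Krt15, a keratin of basal cells and of the hair bulge, and 42.6% for Krt79, a keratin of the upper hair follicle. Krt80, Krt78 and Krt77 were at 50.4%, 64.7% and 71.8%. Krt12, Krt76, Krt42 and Krt9, the last a keratin of palm and sole skin, stayed at or below 0.575 FPKM in every library and were not tested.

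Krt2, a keratin of the upper epidermal layers, departed from this pattern and is singled out after its values were seen. It was at 1.32, 3.50 and 3.21 FPKM in the 3 wildtype mice and 0, 0.0184 and 0.753 FPKM in the 3 knockouts. Only its wildtype values brought it past the 0.5 FPKM filter. It was the only tested keratin whose groups did not overlap, beside 12.5% of all tested genes that did not overlap in that direction and 9.3% in the other, and it was the only stratified keratin highest in wildtype library 2. Its knockout mean was 9.60% of the wildtype mean, and its log2 difference was -1.54 ± 0.33 (SE, n = 3 each; limma adjusted p = 0.182). Over Krt1, its neighbour in the suprabasal layers, Krt2 was 0.0109, 0.0811 and 0.0270 in wildtype against 0, 0.000316 and 0.00568 in knockout libraries.

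Hair keratins were far lower in FPKM. Their means differed more between the genotypes, with a wide spread within each genotype. Their summed level in the root sheath and companion layer class was 41.0, 8.96 and 61.9 FPKM across wildtype and 0.772, 2.40 and 10.9 FPKM across knockout libraries. The shaft class summed to 56.0, 12.8 and 80.5 FPKM in the 3 wildtype mice and 3.01, 4.90 and 17.2 FPKM in the 3 knockouts. In both classes wildtype library 2 lay below knockout library 3, the only overlap of the sums. The log2 ratio of the class sums was -2.99 for the root sheath and -2.57 for the shaft class. Without knockout library 3 it was -4.56 and -3.65, and without wildtype library 3 it was -2.41 and -2.04. Wildtype libraries 1 and 3 were the highest 2 in 17 of the 19 hair keratins, and knockout library 3 was above knockout library 2 in 18 of them.

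Krt71, a type II keratin of the inner root sheath, was at 16.2, 3.64 and 25.2 FPKM across wildtype and 0.281, 0.585 and 3.91 FPKM across knockout libraries. Wildtype library 2 lay just under knockout library 3 and above the other 2 knockout libraries. The knockout mean was 10.6% of the wildtype mean, with a log2 difference of -2.57 ± 0.91 (SE, n = 3 each; limma adjusted p = 0.295).

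Krt25, a type I partner of Krt71, was at 12.4, 2.41 and 19.6 FPKM in the 3 wildtype mice and 0.313, 1.01 and 3.79 FPKM in the 3 knockouts. Krt27, a further type I keratin of the sheath, was at 9.58, 2.38 and 13.9 FPKM across wildtype and 0.132, 0.387 and 2.40 FPKM across knockout libraries. Krt75, the type II keratin of the companion layer, was at 1.16, 0.210 and 1.41 FPKM in the 3 wildtype mice and 0.0436, 0.261 and 0.391 FPKM in the 3 knockouts. For Krt75 wildtype library 2 lay below 2 knockout libraries, and for Krt25 and Krt27 below 1. The log2 differences were -2.07 ± 0.90 for Krt25, -2.21 ± 0.75 for Krt27 and -0.59 ± 0.27 for Krt75 (SE, n = 3 each; limma adjusted p = 0.351, 0.283 and 0.329). Krt28 and Krt26 had knockout means of 21.3% and 5.09% of the wildtype mean, and Krt74 stayed at or below 0.0299 FPKM.

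Krt34, a type I keratin of the hair cortex, was at 12.3, 2.59 and 19.3 FPKM across wildtype and 0.255, 0.316 and 3.04 FPKM across knockout libraries. Krt86, a type II keratin of the cortex, was at 11.7, 2.44 and 17.7 FPKM in the 3 wildtype mice and 0.178, 0.496 and 2.92 FPKM in the 3 knockouts. Krt33b was at 10.6, 2.52 and 16.6 FPKM across wildtype and 0.0985, 0.230 and 2.57 FPKM across knockout libraries, and Krt33a at 7.84, 1.72 and 12.4 FPKM and at 0.196, 0.117 and 2.19 FPKM. In all 4 genes the order was the same at the top: wildtype library 3, wildtype library 1, then knockout library 3 just above wildtype library 2. Their knockout means were 10.6%, 11.3%, 9.75% and 11.4% of the wildtype means, with log2 differences of -2.39 ± 0.87, -2.30 ± 0.85, -2.40 ± 0.82 and -2.08 ± 0.78 (SE, n = 3 each; limma adjusted p = 0.301, 0.303, 0.286 and 0.305).

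These cortex genes resemble each other in sequence, and reads of the stated 50 bases can match more than 1 of them. The share of 50-base windows of the gene's transcript that also occur in another gene's transcripts was 33.1% for Krt34, 43.3% for Krt86, 24.2% for Krt33b and 21.9% for Krt33a. It was 49.5% for Krt6a, 50.1% for Krt6b and 37.6% for Krt16 among the stratified keratins, against 0% for Krt19, Krt20, Krt7, Krt10 and Krt13. The values of the former genes are therefore uncertain as single genes. Krt81, Krt83 and Krt85, type II hair keratins, shared 1 row with 5430421N21Rik, which was at 26.8, 6.18 and 38.7 FPKM in the 3 wildtype mice and 1.66, 1.30 and 8.03 FPKM in the 3 knockouts, 15.3% of the wildtype mean.

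Krt36 and Krt84 stood apart from the other hair keratins and were singled out after their values were seen. Krt36, a type I member of the hair keratin group, was at 1.39, 1.02 and 1.69 FPKM across wildtype and 1.20, 1.32 and 1.82 FPKM across knockout libraries. Krt84, a type II hair keratin also known from the filiform papillae of the tongue, was at 1.82, 1.11 and 1.60 FPKM in the 3 wildtype mice and 0.880, 1.84 and 2.32 FPKM in the 3 knockouts. Both were highest in knockout library 3, and knockout library 1, which held 0.996% of the wildtype mean for Krt33b, held 88.0% of it for Krt36. Their log2 differences were 0.05 ± 0.14 and 0.07 ± 0.22 (SE, n = 3 each; limma adjusted p = 0.886 and 0.902). The knockout means of the other 17 hair keratins lay between 0% and 25.0% of the wildtype mean, with a median of 11.3%. The hair keratins without TATAAA in the 100 bases before their start were Krt36, Krt84, Krt39, Krt82 and Krt75. Knockout means of the last 3 were 6.60%, 6.04% and 25.0% of the wildtype mean. A link between these letters and the levels was not tested.

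**Figure D2:**
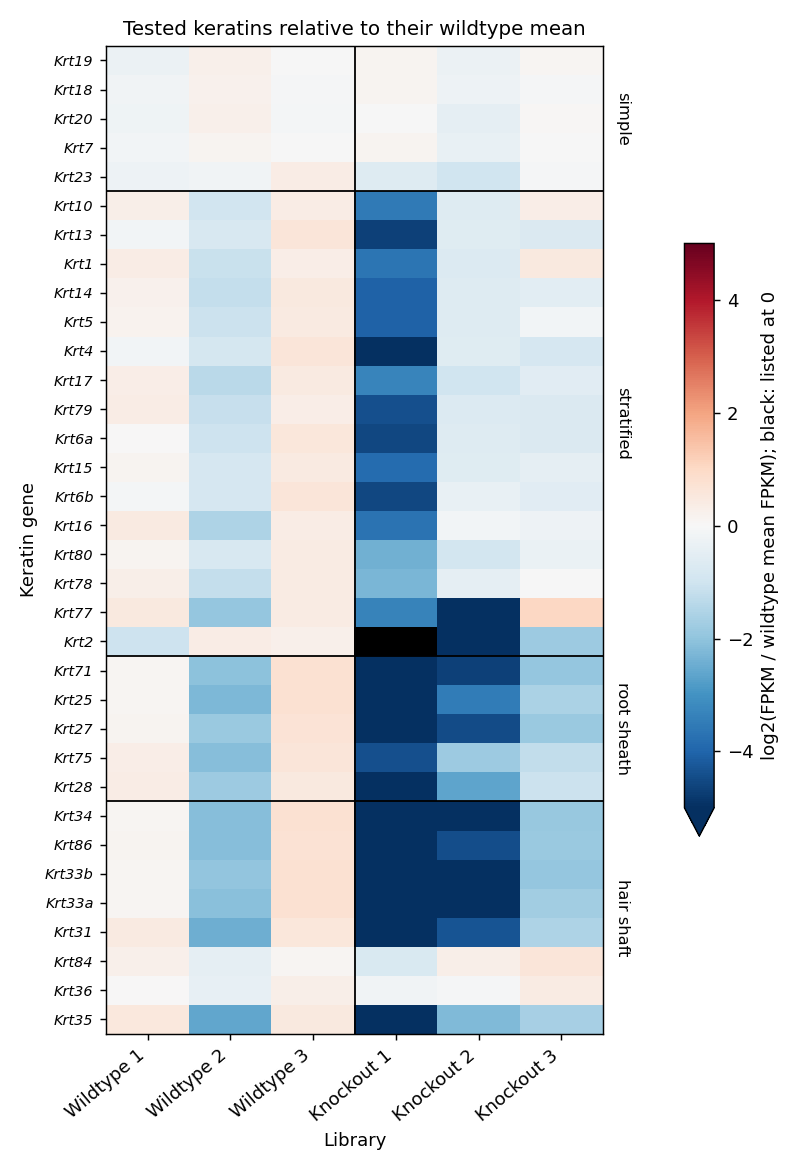
Log2 of FPKM over the gene's wildtype mean for the 34 tested keratins (rows, by class) in each of the 6 libraries (columns), with black for a value listed at 0 and the darkest blue for any value past the end of the scale. The simple keratins are near 0 in every column, the knockout library 1 column is lowest for most stratified and hair keratins, and Krt36 and Krt84 do not follow the other shaft keratins.

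The number of keratins detected followed the same order of libraries. Of the 46 members, 46, 45 and 46 were above 0 in the wildtype libraries and 36, 44 and 45 in the knockout libraries. At 1 FPKM or more there were 34, 29 and 34 members in wildtype and 17, 22 and 30 in knockout libraries. Krt40, a hair shaft keratin singled out after its values were seen, was at 0.226, 0.0170 and 0.354 FPKM in wildtype and was listed at 0 in all 3 knockout libraries. It was too low to be tested, and wildtype library 2 was near 0 as well.

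**Figure D3:**
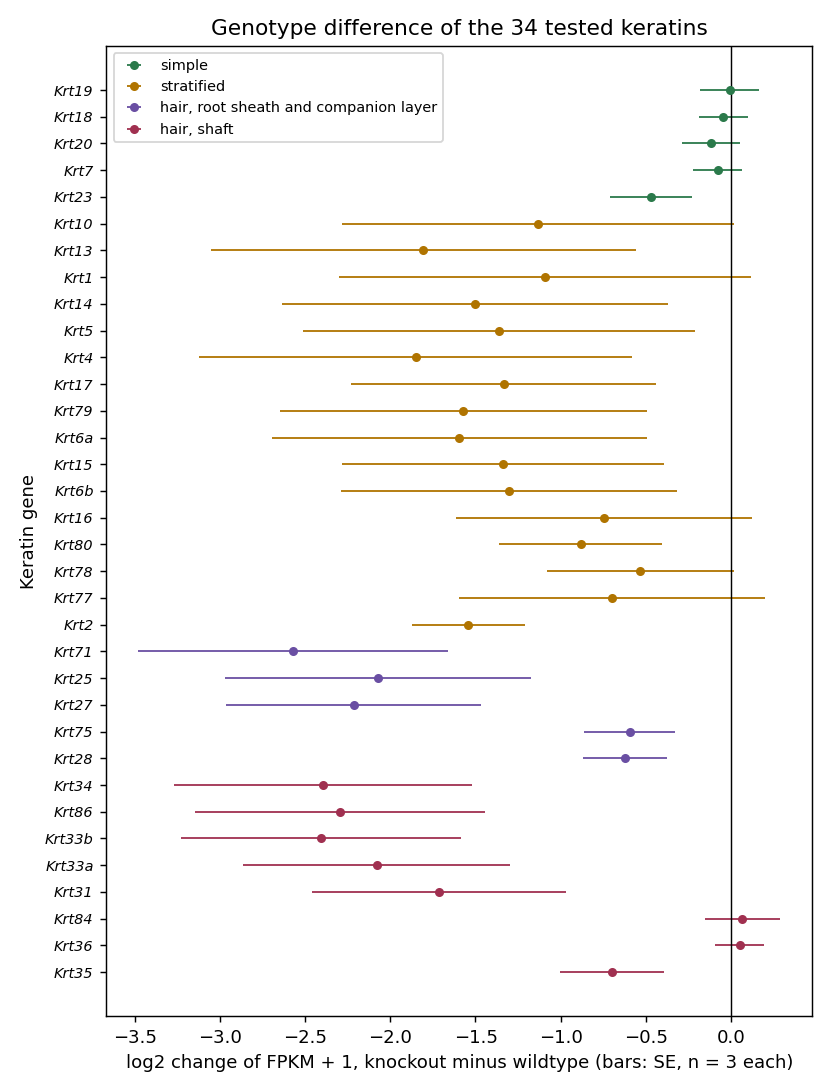
Log2 difference (knockout minus wildtype, on FPKM + 1) of each of the 34 tested keratins, with bars of 1 standard error and 3 libraries in each genotype. Simple keratins lie near 0 with short bars, stratified keratins lie between -1.85 and -0.53 with long bars, and hair keratins other than Krt36 and Krt84 lie between -2.57 and -0.59.

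Median log2 differences of the tested members were -0.08 in the simple, -1.34 in the stratified, -2.07 in the root sheath and -1.90 in the shaft class, beside -0.03 over all 14564 genes tested. Relative to the summed FPKM of the members in each library, simple keratins held 69.6%, 88.7% and 68.5% in wildtype and 98.2%, 81.2% and 79.8% in knockout libraries. The shared rows, that of Krt8 among them, are not part of this sum. Stratified keratins held 27.4%, 10.7% and 28.0% in wildtype and 1.69%, 18.6% and 19.5% in knockout libraries.

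Ratios between textbook partners were next compared within each library. Krt5 over Krt14 lay between 0.612 and 0.817 in the 6 libraries, Krt1 over Krt10 between 0.515 and 0.635, and Krt4 over Krt13 between 0.360 and 0.495. For Krt71 over Krt25 the ratio was 1.31, 1.51 and 1.29 in wildtype and 0.897, 0.581 and 1.03 in knockout libraries, which did not overlap.

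Between classes the ratios were chosen after the values were seen and were not tested. Krt71 over Krt14 was 0.141, 0.0836 and 0.180 in wildtype and 0.0465, 0.00928 and 0.0564 in knockout libraries. Krt34 over Krt14 was 0.107, 0.0595 and 0.138 in wildtype and 0.0423, 0.00501 and 0.0438 in knockout libraries. In both ratios every wildtype library lay above every knockout library, wildtype library 2 included. Both divide by Krt14, so they are not separate results. With Krt13 in its place, knockout library 1 lay above wildtype library 2 for Krt71 and for Krt34. Krt10 over Krt14 ran from 1.51 to 1.93 in wildtype and from 1.69 to 3.01 in knockout libraries, with overlap, and Krt34 over Krt71 from 0.540 to 0.908 over all 6.

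**Figure D4:**
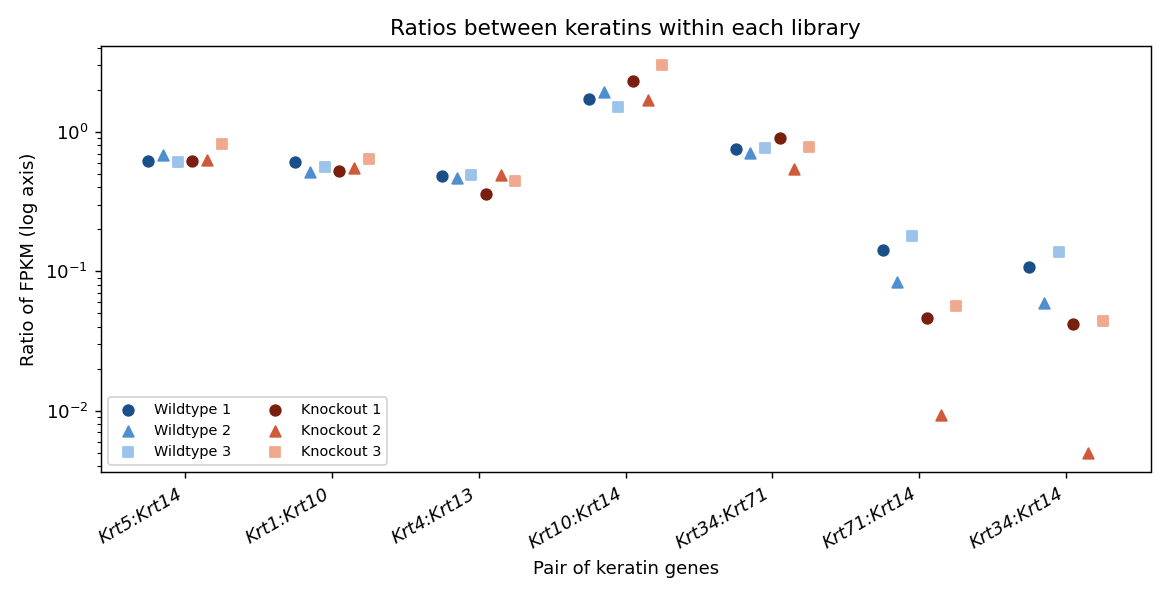
Ratios of FPKM (log axis) between pairs of keratins within each library, 1 marker per library. The pairs Krt5:Krt14, Krt1:Krt10 and Krt4:Krt13 lie close together in all 6 libraries, whereas the ratios of Krt71 and Krt34 to Krt14 are lower in each of the 3 knockout libraries than in each of the 3 wildtype libraries. With Krt13 in place of Krt14, which is not shown, the genotypes overlapped.

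Summed markers of skin barrier, hair follicle and skeletal muscle were lowest in knockout library 1, as most stratified and hair keratins were. The order of the other libraries differed between these lists. The 9 measured skin barrier genes were all lower in the knockout by their means and summed to 787, 419.6 and 814 FPKM across wildtype and 152, 411 and 746 FPKM across knockout libraries, and none was at 0 in any library. Krtdap, a protein of differentiating keratinocytes, was at 351, 129 and 328 FPKM in the 3 wildtype mice and 16.7, 172 and 302 FPKM in the 3 knockouts. Sfn, an epithelial 14-3-3 protein that the colon makes too, was at 122, 151 and 146 FPKM across wildtype and 98.1, 89.2 and 143 FPKM across knockout libraries. Krtdap, like Krt10, was lowest in knockout library 1 and next lowest in wildtype library 2, while Sfn was lowest in knockout library 2.

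The 10 hair follicle markers were found in 11 rows and summed to 205, 98.9 and 280.5 FPKM in the 3 wildtype mice and 17.9, 102 and 113 FPKM in the 3 knockouts. Sprr1a, a cornified envelope protein, was at 183, 89.3 and 255 FPKM across wildtype and 11.5, 95.3 and 103 FPKM across knockout libraries. S100a3, a calcium-binding protein of the hair cuticle, was at 7.37, 1.75 and 9.76 FPKM in the 3 wildtype mice and 0.601, 1.01 and 2.43 FPKM in the 3 knockouts. S100a3 had the library order of Krt34, and Sprr1a, which other stratified linings make too, that of Krt14. Sprr1a made up most of the summed level of the list. Of the 7 tested rows 6 were lower and 1 higher by their means. The 1 higher was Lgr5, a stem cell gene of the hair follicle and the colonic crypt. It was at 149% of the wildtype mean without overlap, beside 9.3% of all tested genes in that direction. Tchh and Crym, the latter at 67.7% of the wildtype mean, were lower without overlap, beside 12.5% of all tested genes. Members near their wildtype mean were Foxn1, with 2 rows at 94.5% and 95.8%, and Msx2 at 90.5%, while Tchh was at 14.6%. Lgr5, Crym, Foxn1, Msx2 and Tchh were named after their values were seen. Of the 11 rows, 2 were listed at 0 in at least 1 library. Skeletal muscle markers, 8 genes, summed to 7524, 2314 and 2676 FPKM across wildtype and 127, 1686 and 1207 FPKM across knockout libraries, and all 8 were lower in the knockout without overlap, beside 12.5% of all tested genes. Acta1, skeletal muscle actin, was at 1840.0, 607 and 732 FPKM in the 3 wildtype mice and 37.7, 428 and 358 FPKM in the 3 knockouts. Tnnt3, a troponin of fast muscle, was at 1498, 435 and 535 FPKM across wildtype and 21.0, 365 and 259 FPKM across knockout libraries. Knockout library 1 was lowest for both, as it was for most stratified keratins. In the muscle sum, unlike in most stratified keratins, wildtype library 2 lay above knockout libraries 2 and 3. Knockout library 2 lay above knockout library 3 in that sum, unlike in most hair keratins. No gene of these 3 lists passed the adjusted limma test. The part that differences in the amount of skin, hair or muscle in the sampled piece of colon had in the keratin values was not tested.

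Epithelial markers were all 9 higher in the knockout by their means, with none past the adjusted test. Epcam, an epithelial adhesion molecule, was at 558, 769 and 630.4 FPKM in the 3 wildtype mice and 772, 630.6 and 704 FPKM in the 3 knockouts. Cldn7, a tight junction protein, was at 356, 507 and 426 FPKM across wildtype and 506, 426 and 530 FPKM across knockout libraries. Both were lowest in wildtype library 1, as Krt19 was.

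Genes that work with keratins showed no call either. Over the desmosome, hemidesmosome, regulator and other intermediate filament lists together with the marker lists, 81 rows were tested, 7 lower and 4 higher at an unadjusted p under 0.05, near the shares over all genes of 9.91% and 6.3%, and 0 passed the adjusted limma test. Desmosomes anchor keratin filaments between cells: of 13 tested genes, 8 were lower and 5 higher by their means, with a median log2 difference of -0.13. Dsg2, the desmoglein of simple epithelia, was at 62.7, 83.5 and 65.6 FPKM in the 3 wildtype mice and 84.1, 70.7 and 75.0 FPKM in the 3 knockouts. Dsp, which binds keratins to the desmosome, was at 58.3, 68.0 and 61.8 FPKM across wildtype and 73.2, 61.4 and 71.3 FPKM across knockout libraries. Neither had knockout library 1 as its lowest, but 6 of the 13 tested desmosome genes did. Among these, named after their values were seen, Dsg3 and Dsc3 of stratified epithelium were at 0.112 and 0.165 FPKM in knockout library 1, against at least 1.09 and 1.08 FPKM in each other library.

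Hemidesmosomes anchor keratins to the basement membrane: of 9 tested genes, 3 were lower and 6 higher, with a median of 0.13. Cd151, a tetraspanin of the hemidesmosome, was at 109.3, 109.1 and 104 FPKM across wildtype and 99.3, 91.0 and 96.3 FPKM across knockout libraries. It was lower without overlap, beside 12.5% of all tested genes, with a log2 difference of -0.17 ± 0.07 (SE, n = 3 each, limma adjusted p = 0.301). Lama3, named after its values were seen, was higher without overlap, beside 9.3% of all tested genes. Its log2 difference was 0.32 ± 0.09 (SE, n = 3 each, limma adjusted p = 0.234). Itga6, an integrin subunit of the hemidesmosome, was at 32.0, 44.9 and 37.7 FPKM across wildtype and 38.0, 28.9 and 36.9 FPKM across knockout libraries. Of the 9, Col17a1, a hemidesmosome collagen of stratified epithelium, was the 1 lowest in knockout library 1, at 0.234 FPKM against 1.43 FPKM or more in each other library, and was named after its values were seen.

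Of 14 tested rows of transcription factors known to control keratin genes, 9 were lower and 5 higher, with a median of -0.06. Klf4, a factor of differentiated colonocytes, was at 222, 255 and 259 FPKM across wildtype and 251, 197 and 248 FPKM across knockout libraries. Klf5, a factor of proliferating crypt cells, was at 84.0, 112 and 113 FPKM in the 3 wildtype mice and 135, 105 and 121 FPKM in the 3 knockouts, and the genotypes overlapped in both. Trp63, the master regulator of stratified epithelium, was singled out after its values were seen: it was at 2.79, 0.955 and 3.15 FPKM in the 3 wildtype mice and 0.142, 1.34 and 1.75 FPKM in the 3 knockouts. Trp63 had the library order of Krt14. Without overlap, 0 of the 14 rows were lower and 2 higher, beside 12.5% and 9.3% of all tested genes. The 2 were Ovol2 and Lef1, also named after their values were seen (limma adjusted p = 0.286 and 0.295).

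Among 14 tested intermediate filament genes other than keratins, 9 were lower and 5 higher, with a median of -0.21. Des, the muscle filament desmin, was at 1310, 820 and 1164 FPKM across wildtype and 732, 1002 and 986 FPKM across knockout libraries. Vim, vimentin of mesenchymal cells, was at 267, 229 and 268 FPKM in the 3 wildtype mice and 176, 202 and 142 FPKM in the 3 knockouts. Vim did not overlap between the genotypes, with a log2 difference of -0.56 ± 0.14 (SE, n = 3 each, limma adjusted p = 0.205), while Des did. Of the 14 genes, 3 were lower and 0 higher without overlap, beside 12.5% and 9.3% of all tested genes.

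In the stratified class the authors' deposited calls differed by position, but only in part. A stretch of chromosome 15 from 101793308 to 102016965 (mm10), the span of the shared Krt73 and Krt8 row, was given as the locus of 11 rows, 7 of them keratins: Krt1, Krt2, Krt4, Krt76, Krt77, Krt78 and Krt79. In the authors' deposited table these 7 had p-values from 0.737 to 0.986, and 0 were called. Of the other 13 stratified keratins 7 were called: Krt13, Krt14, Krt5, Krt17, Krt6a, Krt15 and Krt6b. Those not called included Krt10, the most abundant of the class, with a q-value of 0.542 in the authors' deposited table. The shaft keratin Krt86 was given the span of the shared Krt81, Krt83 and Krt85 row as its locus, yet it was called in that table (q-value 1.3e-05). Krt4 and Krt13, whose ratio varied little between libraries, had log2 fold changes of -1.21 and -1.11 in the authors' deposited table, yet p-values of 0.737 and 1.4e-07. For Krt2 the authors' deposited table gave a log2 fold change of -3.32 with a p-value of 0.897. In the root sheath class 4 of 7 and in the shaft class 7 of 12 were called in the authors' deposited table, and in the simple class 0 of 5.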

How the data were processed

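Total RNA of distal colon from 3 wildtype and 3 TNFR2-/- mice was enriched for mRNA and sequenced as paired 50-base reads. Per the series' design text, the authors used Tophat2 with Bowtie2, Cufflinks and Cuffdiff 2, with mm10 as the build per the submitters' processing notes. The sources used here name no annotation, strandedness or scaling. The deposited table gives FPKM per library and, from Cuffdiff, the authors' group FPKM, log2 fold changes, p-values and q-values per the file headers. Rows without a gene name (1509) were left out.

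Groups came from the sample titles. The test was limma 3.58.1 (R 4.3.3; trend, robust) on log2(FPKM + 1) over the 14564 named rows averaging 0.5 FPKM or more, with calls at 0.05 after Benjamini-Hochberg adjustment, and the fit was tested on simulated data. Alternatives changed the pseudocount, filter, scaling, variance moderation, replicate block and libraries. The table holds no counts, so no counting interval was computed. Deposited starts were counted from 1. Shared 50-base windows came from GENCODE transcripts of the same assembly.

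Members and lists were chosen with earlier results of these data known. Values in every library were given for the 4 keratins of each class with the highest mean, and for the 2 genes of each other list with the highest mean. Genes named outside this rule are said to be chosen afterwards.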

Additional observations from a re-analysis of the deposited data

How the results depend on the processing

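No keratin passed the adjusted limma test under any change of pseudocount, filter, scaling or variance moderation. Leaving out single libraries gave 0 to 1 keratins lower and 0 higher. The 1 was Krt35 without wildtype library 2, with a log2 difference of -1.06 (limma adjusted p = 0.037), and the other lists then also held 1 call, Tchhl1 (range 0 to 1). In that fit both passed the 0.5 FPKM filter only through wildtype libraries 1 and 3, so their means could only come out lower. Tchhl1 was not tested with all 6 libraries. The labels do not say whether numbers 1 to 3 pair the libraries. Deviations from the group means correlated at -0.375, -0.337 and 0.209 for the 3 numbers, and 2 of 6 libraries correlated best with their own number. With so few libraries these values show no pairing but cannot exclude it. With the replicate number as a block, 0 keratins were called in either direction, and calls over all genes went from 42 to 24. Those calls ranged from 21 without knockout library 3 to 74 without wildtype library 2, and were 29 at a pseudocount of 0.1.

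Single keratins near 0 changed sign without being called. With epithelium scaling Krt84 was at -0.019 and Krt36 at -0.042, and with median-ratio scaling Krt19 was at 0.00021. Leaving out single libraries, log2 differences ranged from -0.11 to 0.30 for Krt84, -0.060 to 0.15 for Krt36, -0.16 to 0.14 for Krt19, -0.14 to 0.076 for Krt18, -0.23 to 0.035 for Krt20, -0.19 to 0.069 for Krt7, -1.95 to 0.041 for Krt1 and -1.28 to 0.0027 for Krt16, and the log2 ratio of class sums from -0.16 to 0.12 for simple, -1.51 to -0.40 for stratified, -4.56 to -2.41 for root sheath and -3.65 to -2.04 for shaft keratins.

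Both further fits were chosen after seeing the data and test no cause. The skin barrier level was lowest in knockout library 1, as most stratified and hair keratins were. With the skin barrier level as a covariate, Krt10 was at 0.27, Krt1 at 0.38, Krt5 at 0.015, Krt16 at 0.23, Krt78 at 0.14 and Krt77 at 0.15, and calls over all genes were 26; Krt71 was at -1.69 and Krt34 at -1.60. The other fit left out wildtype libraries 1 and 3 and knockout library 1, which were picked from the range of values itself. The lone wildtype library is assumed to vary like the others, and the values of this fit say nothing on the genotype. Wildtype library 2 lay below knockout libraries 2 and 3 in 16 of the 20 stratified keratins, so positive values in that class followed from the choice. Leaving out wildtype libraries 1 and 3, highest in most hair keratins, likewise moves those toward 0. In that fit Krt16 was at 1.08, Krt10 at 0.82, Krt13 at 0.15, Krt1 at 1.01, Krt14 at 0.59, Krt5 at 0.67 and Krt4 at 0.16. Krt17 was at 0.54, Krt79 at 0.42, Krt6a at 0.34, Krt15 at 0.31, Krt6b at 0.34, Krt80 at 0.15, Krt78 at 0.72 and Krt77 at 0.63. Hair keratins were nearer 0 there (Krt71 -0.73, Krt25 -0.14, Krt34 -0.64, Krt31 -0.07), and Krt18 was at -0.39. The cause of these changes was not tested. The table holds no counts, so what depth limits could not be measured.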
